A study of Homo sapiens with 4 samples.

Results

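Chemokine and IL6 family cytokine transcripts were followed in H226, an established human cell line labelled lung squamous cell carcinoma, after knockdown of p63. The genes described are CXCL1, CXCL2, CXCL3, CXCL5, CXCL8 (interleukin 8), CXCL16, CCL2, CCL20, IL6 and LIF. They were taken by symbol from the deposited count table, which held all 10 among its 25369 genes. One group (shControl, n = 2 cultures) carried a non-targeting hairpin and the other (shp63, n = 2 cultures) a hairpin against p63. Expression of both hairpins is induced by doxycycline, and all 4 cultures, controls included, had 6 days at 1 µg/mL. With 1 construct per group in the labels, what the hairpin does and what loss of p63 does cannot be told apart. The submitters state independent biological replicates, and the p-values measure the spread between these cultures only.

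Chemokines are small secreted proteins that guide leukocytes along a concentration gradient. CXCL1, CXCL2, CXCL3, CXCL5 and CXCL8 share a glutamate-leucine-arginine motif and attract neutrophils through the receptor CXCR2, and CXCL8 also binds CXCR1. CCL2 attracts monocytes through CCR2, CCL20 attracts cells that carry CCR6, and CXCL16 is a membrane-anchored chemokine that can be shed and binds CXCR6. IL6 and LIF are cytokines whose receptors share the subunit gp130, encoded by IL6ST, and signal through JAK kinases and STAT3. Epithelial cells, squamous carcinoma cells among them, are a known source of these proteins, and NF-kB is their best-known transcriptional inducer.

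The 4 libraries held 51926832 to 53924761 counted reads. TP63, the gene targeted by the hairpin, was at 136 and 137 CPM (read counts scaled to TMM-adjusted library size) in shControl and at 30.7 and 30.5 CPM in shp63. Of 8 squamous markers 7 fell and 1 (KRT6A) rose, and SOX2 had 14 reads or fewer in every library. The mesothelial markers MSLN and UPK3B rose, as did KRT8 and KRT18 of the same list, which are keratin genes of simple epithelia in general. The mesothelial markers WT1, CALB2, LRRN4 and ITLN1 had 8 reads or fewer in each library. Of 12 leukocyte markers CD14, CD68, CSF1R and LYZ rose and ITGAM fell. LYZ had 1 read in each control and 33 and 21 in shp63, so it was tested only through its shp63 reads. The list summed to 16.3 to 17.7 CPM in shControl and 82.9 to 86.6 CPM in shp63. The pan-leukocyte marker PTPRC had 4 to 8 reads in every library, and MS4A1 and CD52 had none. Of 8 fibroblast markers 3 were tested and 2 fell (COL1A1 and PDGFRB), and DCN and LUM had 1 read or fewer. Of 6 endothelial markers 3 were tested, CDH5 and PECAM1 rose and VWF fell, and KDR and CLDN5 had 1 read or fewer. By the calling rule given below, 36.9% of all tested genes rose and 37.1% fell. The part of these marker changes in the chemokine results was not tested.

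The neutrophil-attracting chemokine genes lie together on chromosome 4, and their promoters are shown first because 4 of them rose together. Of the 10 genes, 7 had a promoter in the RefSeq table (CXCL1, CXCL2, CXCL3, CXCL5, CXCL8, CCL20 and IL6). Each of the 7 sequences matched GRCh37, the build of the deposited counts, at exactly 1 place. The 250 bases before the RefSeq start were searched on both strands for letters of an NF-kB site, GGNNTTTCC (GGAAANNCC on the other strand). RefSeq starts can lie inside the GENCODE gene spans given further on. Those of CXCL3 (74904406), CXCL8 (74606286), CCL20 (228678558) and IL6 (22766819), for instance, lay inside. Most of the CXCL3 window below thus falls within its GENCODE span. Positions are counted from the RefSeq start only. Below are the last 120 bases before that start for the 4 genes that rose, with matches to those letters in capitals. They read 5′ to 3′ on the gene's own strand. The windows are chr4:74734990-74735109 (plus strand) for CXCL1, chr4:74964913-74965032 (minus) for CXCL2, chr4:74904407-74904526 (minus) for CXCL3 and chr4:74606166-74606285 (plus) for CXCL8, all GRCh37.
CXCL1: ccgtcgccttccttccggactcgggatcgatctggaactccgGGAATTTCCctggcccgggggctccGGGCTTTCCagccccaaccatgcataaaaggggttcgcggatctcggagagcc
CXCL2: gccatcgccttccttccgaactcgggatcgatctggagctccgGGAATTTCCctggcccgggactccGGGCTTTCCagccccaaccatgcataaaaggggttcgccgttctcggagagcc
CXCL3: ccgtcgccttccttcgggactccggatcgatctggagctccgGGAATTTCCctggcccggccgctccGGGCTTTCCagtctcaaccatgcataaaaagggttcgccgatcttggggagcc
CXCL8: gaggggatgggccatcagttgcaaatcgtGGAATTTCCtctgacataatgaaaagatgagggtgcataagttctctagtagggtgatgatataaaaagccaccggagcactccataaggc

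CXCL1, CXCL2 and CXCL3 each held 2 matches, GGAATTTCC at -78, -77 and -78 and GGGCTTTCC at -53 in each, counted from the base before the start as -1. CXCL8 held GGAATTTCC at -91. The promoters of CCL20 (tested and not called) and of CXCL5 and IL6 (too low to test) held 1 match each, so all 7 promoters had at least 1. Among all 35116 RefSeq promoters 5.48% held one in the same 250 bases. The AP-1 letters TGANTCA were found only in the CXCL8 promoter of the 7, at -137, and in 6.57% of all promoters. The C/EBP letters TTGCNNAA (TTNNGCAA on the other strand) were found in CXCL2 and IL6, and in 9.05% of all promoters. These are matches of letters and not measured binding. CXCL1, CXCL2 and CXCL3 are close paralogs, so their promoters are not independent examples. NF-kB is a known inducer of these genes, so the share over all promoters is a background and not a test.

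The question was whether knockdown of p63 changes these inflammatory transcripts. Of the 10 genes, 7 passed the filter on low counts and were tested, and 6 of the 7 rose in shp63: CXCL1, CXCL2, CXCL3, CXCL8, CXCL16 and LIF. None fell, and CCL20 was not called. Calls were made where edgeR's quasi-likelihood test with Benjamini-Hochberg adjustment gave an adjusted p under 0.05. By that rule 74.0% of all 14901 tested genes were called, 36.9% higher and 37.1% lower. The stricter test, which asks for more than a 1.5-fold change, called 5 of the 7 (all but CCL20 and LIF), against 12.7% of all tested genes called higher. In 6 of the 7 both shp63 libraries stood above both controls, as they did for 42.8% of all tested genes. The median log2 fold change of the 7 was 0.97, against -0.01 over all tested genes. IL6, CXCL5 and CCL2 did not reach the filter, so these counts do not cover them. The 10 genes were chosen with earlier results of these data known. The shares and the median over all genes therefore give a background and do not test the set.

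**Figure D1:**
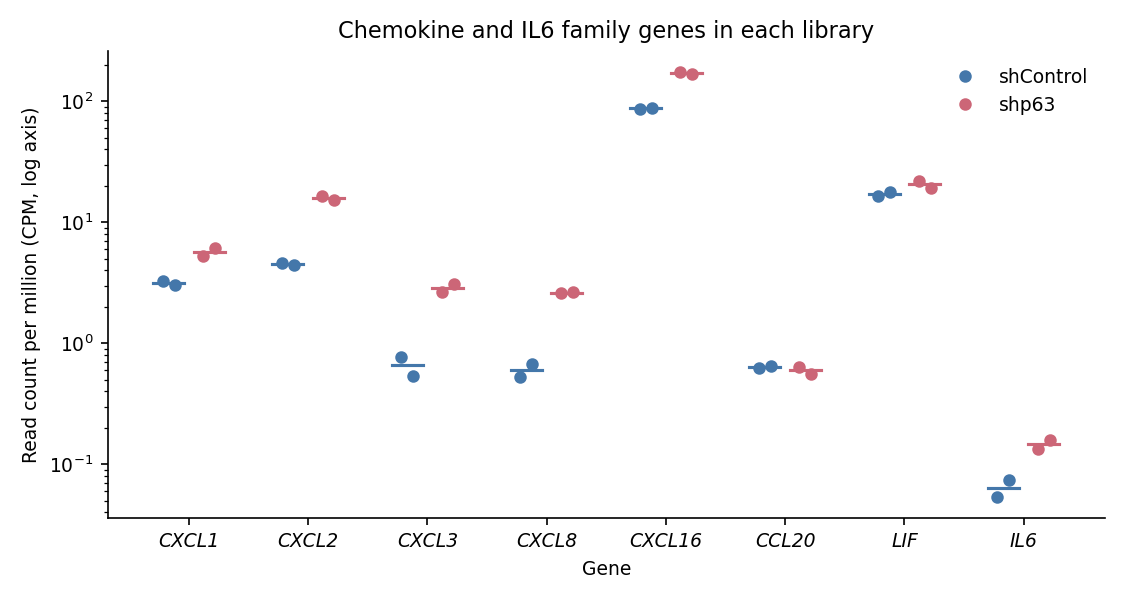
Level of 8 genes in each of the 4 libraries, as CPM on a log axis. Points are libraries, short lines are means of the 2 libraries of a group, and blue is shControl and red shp63. CXCL5 and CCL2 are left out because of libraries at 0. The red points lie above the blue ones for every gene drawn except CCL20, and those of CXCL3 and CXCL8 are the farthest from the blue among the tested genes.

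CXCL8 encodes interleukin 8, the best-known neutrophil chemokine (chromosome 4, 74606236 to 74609433, plus strand, GRCh37). It had 29 and 36 reads in the controls and 135 and 133 after p63 knockdown, or 0.523 and 0.670 against 2.60 and 2.65 CPM. Both shp63 libraries were higher than both shControl libraries. The rise was 4.39-fold (log2 fold change 2.14, SE 0.187, adjusted p = 8.63e-10, edgeR quasi-likelihood test with Benjamini-Hochberg adjustment).

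CXCL3 (chromosome 4, 74902306 to 74904524, minus strand) had 43 and 29 reads in shControl and 138 and 154 in shp63, or 0.776 and 0.539 against 2.65 and 3.07 CPM. It rose 4.33-fold (log2 fold change 2.11, SE 0.189, edgeR adjusted p = 1.32e-09). The 2 control libraries were the least alike of any tested member, and without one or the other the log2 fold change was 1.87 or 2.40.

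CXCL2 (chromosome 4, 74962757 to 74964913, minus strand) was at 4.64 and 4.46 CPM in shControl and at 16.4 and 15.4 CPM in shp63. With 240 to 855 reads per library it was measured more closely than CXCL3 and CXCL8. It rose 3.50-fold (log2 fold change 1.81, SE 0.078, edgeR adjusted p = 3.38e-15). CXCL1 (chromosome 4, 74735110 to 74737025, plus strand) was at 3.26 and 3.01 CPM in shControl and at 5.27 and 6.10 CPM in shp63. Its groups did not overlap either, and its rise was 1.81-fold (log2 fold change 0.85, SE 0.112, edgeR adjusted p = 5.23e-07). The 95% interval of the CXCL1 log2 fold change, 0.62 to 1.09, lay below that of CXCL2, 1.65 to 1.97, though the difference between the genes was not itself tested.

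CXCL1, CXCL2 and CXCL3 share stretches of sequence, so reads may be split or lost between them. Of the windows of 50 bases in the CXCL2 transcript (GENCODE), 5.63% also occurred in CXCL1 and 5.07% in CXCL3, and no window of 100 bases was shared. The read length was not given in the sources used here. With the reads of the 3 genes summed to 1 row, the sum was at 8.68 and 8.02 CPM in shControl and at 24.4 and 24.6 CPM in shp63. The sum rose 2.93-fold (log2 fold change 1.55, SE 0.062, edgeR adjusted p = 1.24e-15). CXCL8 shared no window of 50 bases with the other 3.

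CXCL5, which encodes another CXCR2 ligand from the same cluster, had 1 and 0 reads in shControl and 0 and 2 in shp63. A library count of 0 allows up to 3 reads, or about 0.0541 to 0.0598 CPM, so no difference was detectable at this depth. From these counts the ratio of shp63 to shControl was 2.14, with a 95% counting interval of 0.111 to 126.

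**Figure D2:**
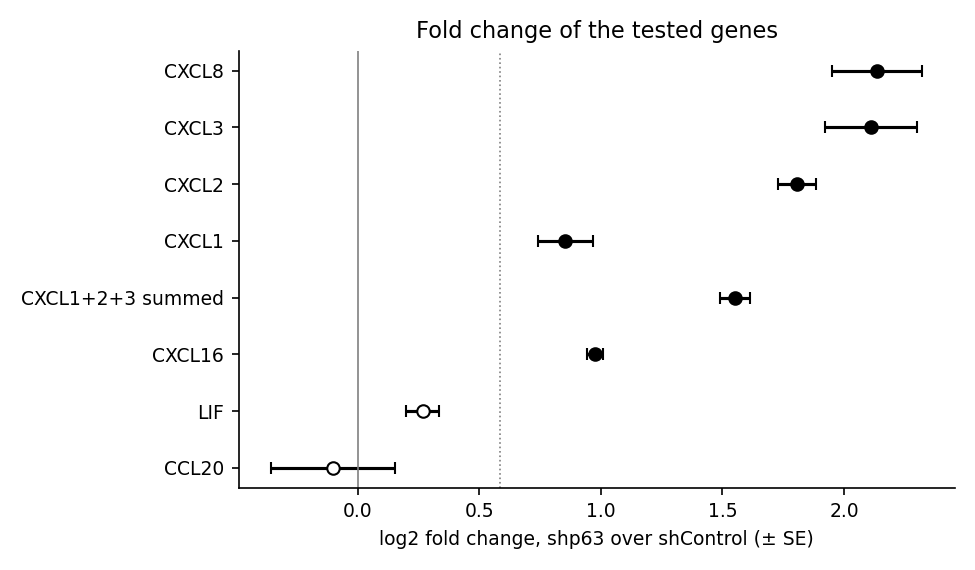
Log2 fold change of shp63 over shControl with its standard error for the 7 tested genes and for CXCL1, CXCL2 and CXCL3 summed. Filled points passed the test for a change beyond 1.5-fold (dotted line), open points did not. CXCL8 and CXCL3 lie above 2, CXCL1 and CXCL16 near 1, and CCL20 at 0 within its error.

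CXCL16 was the most abundant of the 10 genes. It encodes a chemokine with a transmembrane stalk and lies on chromosome 17 from 4636828 to 4643223 (minus strand). It was at 87.1 and 87.9 CPM in shControl and at 175 and 169 CPM in shp63, with 4726 to 9097 reads per library. The rise was 1.96-fold (log2 fold change 0.97, SE 0.033, edgeR adjusted p = 4.89e-17). Its annotated span overlaps ZMYND15 and MED11 on the opposite strand, and whether the counting used strand was not stated. These neighbours were at 3.71 and 15.6 CPM on average in shControl and at 5.82 and 17.2 CPM in shp63. Their part in the CXCL16 count was not tested.

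The set holds 2 CC chemokine genes, 1 of them tested. CCL20 (chromosome 2, 228670455 to 228682280, plus strand) had 35 and 35 reads in shControl and 33 and 28 in shp63, or 0.631 and 0.651 against 0.634 and 0.558 CPM. The groups overlapped, and the log2 fold change was -0.10 with a 95% interval of -0.63 to 0.43 (SE 0.254, edgeR adjusted p = 0.728). CCL2 (chromosome 17, 32582293 to 32584227, plus strand) had 0 reads in all 4 libraries, which allows up to 0.0541 to 0.0598 CPM in a library. The floors for counts of 0 and the counting intervals cover counting error only.

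The 2 IL6 family cytokines differed in level. LIF, leukemia inhibitory factor (chromosome 22, 30636442 to 30642748, minus strand), was at 16.4 and 17.8 CPM in shControl and at 22.0 and 19.1 CPM in shp63. Its groups were close but did not overlap, and it rose 1.20-fold (log2 fold change 0.27, SE 0.066, edgeR adjusted p = 0.00117). Without replicate 1 of shp63 the log2 fold change was 0.16 and the call was lost, and without replicate 2 it was 0.36. The size of the LIF rise thus depended on which shp63 library was kept. Each of these fits leaves 1 shp63 library. IL6 (chromosome 7, 22765503 to 22771621, plus strand) had 3 and 4 reads in shControl and 7 and 8 in shp63. Both shp63 libraries were above both controls, but the ratio of 2.29 had a 95% counting interval of 0.879 to 6.64. Without the low-count filter the IL6 log2 fold change was 1.16 (SE 0.717, edgeR adjusted p = 0.173).

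Levels of different genes were compared per length, as CPM per kilobase of exon in GENCODE (RPKM, mean ± SD, n = 2). In shControl the order was CXCL16 at 31.3 ± 0.217, LIF at 4.43 ± 0.257, CXCL2 at 3.25 ± 0.0862, CXCL1 at 2.30 ± 0.130, CCL20 at 0.402 ± 0.00880, CXCL3 at 0.296 ± 0.0752 and CXCL8 at 0.230 ± 0.0401. The libraries of CXCL3 and CXCL8 overlapped there. In shp63 CXCL16 led with 61.5 ± 1.51, and CXCL2 at 11.4 ± 0.515 stood above LIF at 5.32 ± 0.534 and CXCL1 at 4.17 ± 0.434. CXCL3 at 1.29 ± 0.133 and CXCL8 at 1.01 ± 0.0157 stood above CCL20 at 0.374 ± 0.0337, the reverse of their order in shControl. IL6 was at 0.0149 ± 0.00332 and 0.0340 ± 0.00409. The annotation the authors counted on was not given, so lengths may differ from theirs. With the canonical GENCODE transcript in place of all exons, an alternative chosen after the data were seen, CCL20 stood at 0.769 ± 0.0168 in shControl, above CXCL3 at 0.612 ± 0.155 and CXCL8 at 0.363 ± 0.0632. In shp63 it stood at 0.715 ± 0.0644, below CXCL3 at 2.66 ± 0.275 and CXCL8 at 1.60 ± 0.0248. Their order thus reversed with either length, though the levels of these 3 genes and of IL6 moved by over 1.5 times. By that length the libraries of CXCL3 and CXCL8 no longer overlapped in shControl, and those of LIF and CXCL1 (4.84 ± 0.504) overlapped in shp63.

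The 5 neutrophil chemokine genes lie within 359 kb of chromosome 4 (74606236 to 74964913, GRCh37), together with CXCL6, PPBP, PF4 and PF4V1. Of the genes in this interval 5 were tested and all 5 were called higher, as were 36.9% of all tested genes. CXCL1, CXCL2, CXCL3 and CXCL8 were chosen with earlier results of these data known. The other was PPBP, under the filter's minimum count of 10 in both controls and so tested only through its shp63 reads. The count of 5 is therefore no test of the cluster. PPBP encodes the precursor of the platelet-derived CXCR2 ligand NAP-2. It had 8 and 5 reads in shControl and 165 and 183 in shp63, a 28.1-fold rise (log2 fold change 4.81, SE 0.254, edgeR adjusted p = 1.32e-13) from a very low level. CXCL6 and PF4V1 had 0 reads in every library, and PF4 had 1 to 8.

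Genes within 500 kb on either side, a distance chosen after the values were seen, moved both ways. RASSF6, on the CXCL8 side, went from 35.4 and 31.2 to 9.65 and 8.72 CPM, a 3.62-fold fall. MTHFD2L, next to CXCL2, was at 3.82 and 4.17 CPM in shControl and at 4.42 and 4.11 CPM in shp63 and was not called. Beyond it the EGF receptor ligand genes EPGN, EREG and AREG rose 2.67-fold, 4.68-fold and 4.64-fold, with edgeR adjusted p of 4.26e-07, 4.79e-05 and 5.62e-09. EREG had 5 and 6 reads in shControl and 24 and 25 in shp63. Like PPBP it was tested only through its shp63 reads. AREG has a near-identical copy in GRCh37, so its count depends on how shared reads were assigned.

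**Figure D3:**
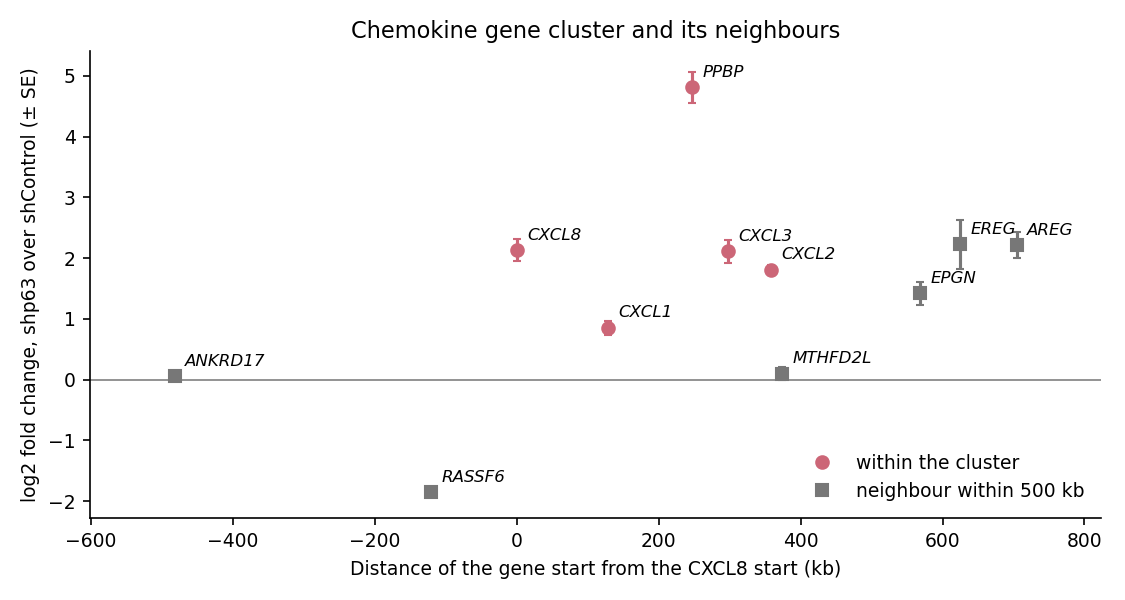
Log2 fold change of shp63 over shControl (± SE) for the tested genes in and around the chemokine cluster on chromosome 4, against the distance in kb of each gene's start from the start of CXCL8. Red circles lie within the cluster and grey squares within 500 kb of it. All 5 red points are above 0, PPBP is the highest at 4.81, and RASSF6 is the only gene drawn well below 0.

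Most other chemokine ligand genes were at or near 0 reads. Of 11 other CXC ligands 3 were tested, and PPBP, CXCL11 and CXCL14 rose, against 36.9% of all tested genes called higher. PPBP was tested only through its shp63 reads, and CXCL14 had 10 and 12 reads in shControl, near the filter's minimum count of 10. These 3 rises are therefore no test of the list. CXCL11, an interferon-induced ligand of CXCR3, went from 0.198 and 0.279 to 0.884 and 0.638 CPM (log2 fold change 1.67, SE 0.319). CXCL14 went from 0.180 and 0.223 to 0.846 and 0.519 CPM (log2 fold change 1.75, SE 0.350). Of 25 other CC, C and CX3C ligands 5 were tested, 3 rose and 2 (XCL1 and XCL2) were not called, and 12 had no read in any library. CCL22, a ligand of CCR4 best known from dendritic cells and macrophages, went from 0.559 and 0.502 to 7.57 and 6.96 CPM, a 13.6-fold rise (log2 fold change 3.77, SE 0.150, edgeR adjusted p = 8.21e-16). CCL28, a mucosal epithelial chemokine, rose 2.27-fold from 6.13 and 5.79 to 13.9 and 13.1 CPM. CCL5 rose 1.49-fold and did not pass the test beyond 1.5-fold.

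The receptor for the risen neutrophil chemokines fell. CXCR2 had 285 and 241 reads in shControl and 27 and 30 in shp63, or 5.14 and 4.48 against 0.519 and 0.598 CPM, with no overlap. The fall was 8.60-fold (log2 fold change -3.10, SE 0.170, edgeR adjusted p = 2.45e-13). The other classical chemokine receptors of the genes described here were at or near 0: CXCR1 and CXCR6 had 2 reads or fewer and CCR6 4 or fewer in each library, and CCR2 had none.

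Among the 23 chemokine receptor genes 7 were tested, of which 3 rose, 2 fell and 2 were not called. Their median log2 fold change was 0.01, and of all tested genes 36.9% rose and 37.1% fell. The 3 that rose encode atypical receptors or relatives that bind ligands without classical G protein signalling. ACKR4 went from 0.595 and 0.577 to 4.98 and 5.70 CPM (9.07-fold), CCRL2 from 0.974 and 0.763 to 4.75 and 4.93 CPM (5.55-fold) and ACKR2 from 0.938 and 0.930 to 4.04 and 3.71 CPM (4.14-fold). ACKR3, the atypical receptor of CXCL11 and CXCL12, fell 3.90-fold from 19.3 and 21.3 to 5.17 and 5.25 CPM. ACKR4 lies within ACAD11 on the opposite strand, whose mean level was 2.98 CPM in the controls and 4.08 CPM after knockdown. The adjusted p was 6.52e-14 for ACKR4, 1.65e-12 for CCRL2, 6.11e-11 for ACKR2 and 4.06e-16 for ACKR3 (edgeR quasi-likelihood test, Benjamini-Hochberg).

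Of 8 other IL6 family ligand genes 4 were tested, of which 1 rose, 1 fell and 2 (IL11 and CTF1) were not called. Over all tested genes 36.9% rose and 37.1% fell. CLCF1, a cardiotrophin-like cytokine, went from 11.9 and 13.2 to 32.0 and 29.2 CPM (2.44-fold). Its adjusted p was 2.46e-14 (edgeR quasi-likelihood test, Benjamini-Hochberg). RAD9A, which overlaps CLCF1 on the opposite strand, fell in the same libraries. CNTF fell from 15 and 13 reads to 3 and 7 and was tested only through its shControl reads. CNTFR, the receptor subunit through which CLCF1 signals, had 2 reads or fewer in every library.

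Of 8 IL6 family receptor genes 6 were tested, of which 4 rose, 1 fell and 1 was not called. The median log2 fold change was 0.52, and of all tested genes 36.9% rose and 37.1% fell. IL6ST, the shared gp130 subunit, rose 1.45-fold from 186 and 180 to 265 and 268 CPM, and OSMR, the oncostatin M receptor, rose by the same factor from 228 and 222 to 329 and 323 CPM. LIFR, which pairs with gp130 to bind LIF, fell 1.19-fold from 31.7 and 30.9 to 26.4 and 25.9 CPM. IL6R, the IL6-binding chain, was at 3.52 and 3.61 CPM in shControl and at 3.31 and 3.25 CPM in shp63 (edgeR adjusted p = 0.357). IL27RA rose 2.26-fold. Only IL27RA passed the test for a rise beyond 1.5-fold.

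Downstream, 16 JAK and STAT3 signalling genes were tested, of which 7 rose, 5 fell and 4 were not called. These counts are close to the shares over all tested genes, 36.9% higher and 37.1% lower. The median log2 fold change of the list was -0.08. JAK1 rose 1.45-fold, BCL3 1.73-fold and the phosphatase gene PTPN6 1.38-fold. The kinase gene PIM1, a STAT target, fell 2.25-fold from 17.9 in both controls to 8.46 and 7.46 CPM, and PTPN11 and PIAS3 fell 1.21-fold and 1.31-fold. SOCS3, the feedback inhibitor induced by STAT3, was at 588 and 618 reads in shControl and at 510 and 502 in shp63 (edgeR adjusted p = 0.0543). SOCS3 was named after its values were seen, as a known readout of IL6 family signalling. SOCS1 of the same list rose from a very low level, 5 and 7 reads, to 33 and 15. It was under the filter's minimum count of 10 in both controls and so tested only through its shp63 reads. Its log2 fold change was 2.07 (SE 0.462, edgeR adjusted p = 0.000388). SOCS2 and CISH were not called.

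Of 14 transcription factor genes that act on chemokine and IL6 promoters 9 rose, 3 fell and 2 (RELA and REL) were not called. Their median log2 fold change was 0.32, and 36.9% of all tested genes rose and 37.1% fell. The list was chosen with earlier results of these data known, so its counts do not test it. NFKB2, the p100 subunit of NF-kB, rose 1.91-fold, and the AP-1 genes JUN and FOS rose 2.80-fold and 2.04-fold. The NF-kB subunit gene RELB rose 2.07-fold. NFKBIZ, a nuclear cofactor of NF-kB at the IL6 promoter that was named after its values were seen, rose 2.71-fold. FOSL1, NFKB1 and CEBPD fell 2.99-fold, 1.36-fold and 1.17-fold. NFKBIZ overlaps NXPE3 on the same strand, which fell.

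Of 16 genes for cytokines and receptors that induce chemokines 14 were tested, of which 10 rose, 3 fell and 1 (TNF) was not called. The median log2 fold change was 0.34, and of all tested genes 36.9% rose and 37.1% fell. This list too was chosen with earlier results of these data known. The ligand genes IL1A and IL1B fell 3.50-fold and 2.53-fold, and the receptor accessory gene IL1RAP fell by 0.58 on the log2 scale. IL1R1, the interleukin 1 receptor, rose 5.86-fold from 4.89 and 5.04 to 28.9 and 29.3 CPM (log2 fold change 2.55, SE 0.065, edgeR adjusted p = 3.36e-19). The adaptor gene MYD88 rose 1.43-fold and IL17RC 1.67-fold.

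**Figure D4:**
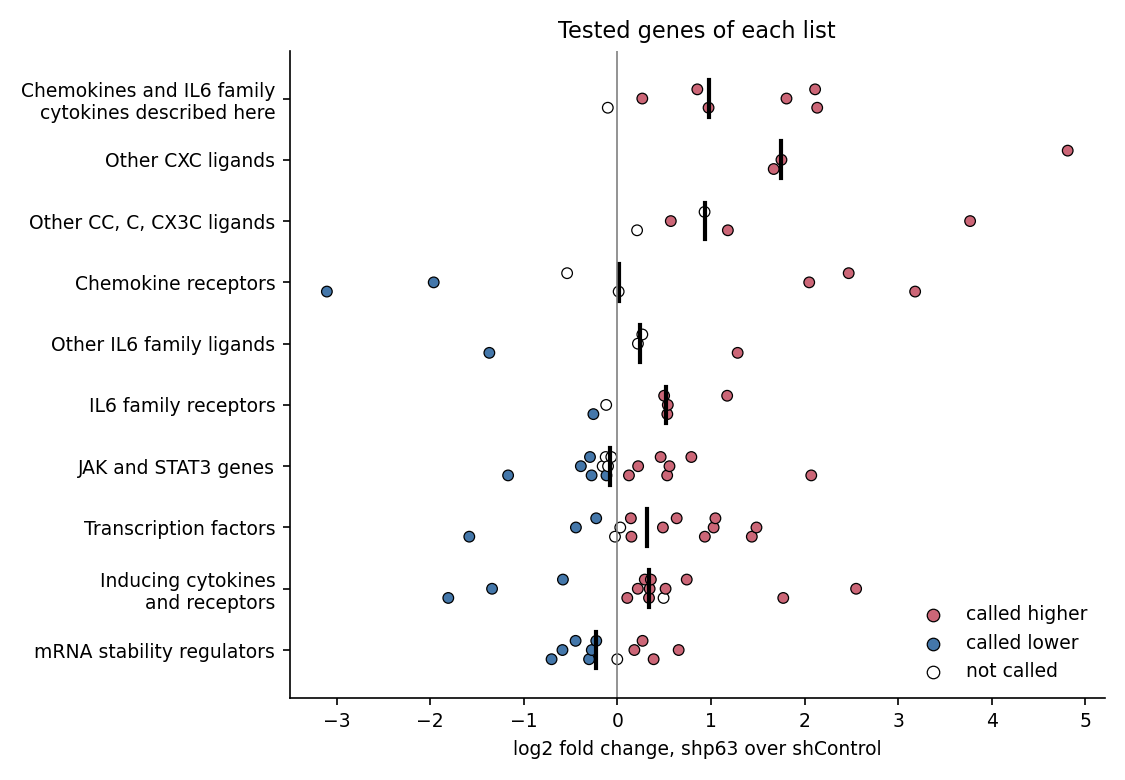
Log2 fold change of shp63 over shControl for every tested gene of 10 lists. Each point is a gene, red where called higher, blue where called lower and white where not called, and the black bar is the median of the list. The described genes lie to the right of 0 except CCL20, while chemokine receptors spread from -3.10 (CXCR2) to 3.18 (ACKR4).

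Chemokine and IL6 mRNAs are short-lived, and 11 genes for regulators of their stability were tested. Of these 6 fell, 4 rose and 1 was not called, against 37.1% lower and 36.9% higher over all tested genes. The median log2 fold change was -0.23. HNRNPD and KHSRP, which encode decay-promoting AU-rich element binding proteins, fell by 0.70 and 0.59 on the log2 scale, and ZFP36L1 fell by 0.30. ELAVL1 and ARID5A fell by 0.27 and 0.45 on that scale. The net effect of these changes on mRNA decay was not tested. ZFP36, encoding tristetraprolin, rose 1.57-fold, MAPKAPK2, the kinase that restrains it, 1.31-fold, and ZC3H12A, encoding regnase-1, 1.21-fold. Only HNRNPD passed the test beyond 1.5-fold. Among the proteases, ADAM10, which sheds CXCL16 from the cell surface, rose 1.88-fold from 211 in both controls to 396 and 397 CPM, and ADAM17 fell from 69.3 and 69.1 to 62.0 and 60.7 CPM. DPP4, which trims chemokines, rose from 6 and 2 reads to 33 and 48 and was tested only through its shp63 reads.

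Of 11 other haematopoietic and epithelial cytokine genes 8 were tested, of which 3 rose, 4 fell and 1 was not called. The median log2 fold change was -0.40, and of all tested genes 36.9% rose and 37.1% fell. IL23A, a subunit of interleukin 23, rose 6.57-fold from 0.307 and 0.521 to 3.04 and 2.39 CPM, and IL15 and IL32 rose 1.63-fold and 1.64-fold. CSF1, the macrophage growth factor, fell 2.35-fold from 47.0 and 46.6 to 20.6 and 19.2 CPM, and KITLG and TSLP fell 1.37-fold and 1.57-fold.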

How the data were processed

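Poly(A) RNA-seq libraries of 2 shControl and 2 shp63 cultures were compared. The authors deposited whole-number read counts per gene, made with TopHat2 2.0.13 on GRCh37 and HTSeq 0.6.1, per the series' design text and the submitters' processing notes. For HTSeq neither annotation nor strand setting is given in the sources used here. Counts of all 25369 genes entered edgeR 4.0.16 (R 4.3.3). TMM factors ranged from 0.966 to 1.03, and filterByExpr (minimum count 10, minimum total 15) kept 14901 genes. Some genes were under that minimum count in both libraries of 1 group and were tested only through the other group. Among those named are PPBP, EREG, SOCS1, LYZ, DPP4, CNTF, SOX2 and PDGFRB, and the filter favoured their direction. A robust quasi-likelihood model with group as the term was fitted, and p-values were Benjamini-Hochberg adjusted over all tested genes, with calls under 0.05. A second test (glmTreat) asked for a change beyond 1.5-fold. Standard errors are the absolute log2 fold change over the square root of F. The script was tested on simulated counts. The members and lists were chosen with earlier results of these data known. The text names the 10 members, their receptors, TP63 and up to 3 called genes per direction of smallest adjusted p in each list. Further genes, such as SOCS1, SOCS3, NFKBIZ, RELB, ELAVL1 and ARID5A, were named after their values were seen. A gene of one list is not reported here. CPM use the TMM-scaled totals, so 1 CPM rests on about 50 reads. Gene models are GENCODE v44 on GRCh37, and promoters come from RefSeq (GRCh38.p14) matched to GRCh37. Alternatives were other size factors and filters, DESeq2 1.42.0, limma-voom (limma 3.58.1), a replicate block and each library left out.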

Additional observations from a re-analysis of the deposited data

How the results depend on the processing

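CXCL1, CXCL2, CXCL3, CXCL8, CXCL16 and the CXCL1 to CXCL3 sum kept their direction and call in all 12 alternatives. These were 2 other size factors, 2 other low-count filters, DESeq2, limma-voom, the replicate block as numbered and crossed, and 4 fits without 1 library. LIF kept its call in 11 of 12, the exception being the fit without replicate 1 of shp63 (log2 fold change 0.16, edgeR adjusted p = 0.0506). The cause was not tested, though that fit has fewer samples. CCL20 was called in none of 11 alternatives, with log2 fold changes from -0.20 to -0.02, and the filter of 1 CPM in at least 2 libraries left it out. Where 1 library is left out, the lone library is assumed to vary like the other group. Over all genes, calls ranged from 9554 (DESeq2) to 11387, against 11033. With library totals alone 4658 genes were called higher and 6591 lower, against 5499 and 5534, and beyond 1.5-fold 1638 higher and 1828 lower, against 1894 and 1491. Labels number the replicates in both groups but state no pairing. Same-numbered libraries did not deviate together (correlation -0.11 across genes), so the replicate block was run as numbered (10858 genes called) and, added after seeing that correlation, crossed (11387 genes called). With the block as numbered the CXCL1 to CXCL3 sum had a log2 fold change of 1.55. Depth limits IL6, CXCL5 and CCL2.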
